A study of Mus musculus with 3 samples.

Results

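Histone genes were examined in ureteric duct cells of the mouse embryo. Members were all genes whose symbol starts with one of the mouse histone prefixes, among them H1f, H2a, H2b, H3c, H3f, H4c, H4f and Macroh2a, and that had a probe set assigned to a single symbol. This gave 48 of the 19938 genes with such a probe set. By their symbols, 25 belonged to the replication-type genes, 13 to the variants and 10 to histones known from the male or female germ line. The rule for members used names only and no measured value, but it was chosen with earlier results of these data known.

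The data comprised 3 arrays of one group and no second group. The embryos were of the CD-1 strain at 10.5 days post coitum (Theiler stage 18) and carried the transgene Tg(Hoxb7-EGFP)33Cos, in which the Hoxb7 promoter drives green fluorescent protein in the nephric duct and its branches. Each sample was a single dissected duct, not pooled, that was dissociated with trypsin and sorted for fluorescence, and its RNA was amplified in 1 round. The labels do not state that the samples are separate embryos, so p-values cover the spread among these 3 samples alone, and that spread may be technical.

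Histones are the proteins around which DNA is wrapped into nucleosomes. Cells make most of them in S phase from replication-type genes, which lie in clusters, have no introns and give mRNAs that end in a stem-loop instead of a poly(A) tail. Variants are made through the whole cell cycle from scattered genes with polyadenylated mRNAs, and they replace the replication-type proteins at chosen places such as gene starts and sites of DNA damage. In a growing epithelium such as the early duct, replication-type mRNAs are known to rise and fall with DNA synthesis.

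Control of these genes starts at promoters with a few short motifs, and 5 promoters are shown here because their genes carry the values described below. They are the 250 bases before the annotated start, from RefSeq, build GRCm38.p6, written 5′ to 3′ on the strand of the gene. The region shown for H2bc14 is chr13:21721794-21722043 (plus strand), for H2ac15 chr13:21753913-21754162 (minus strand), for H1f2 chr13:23738557-23738806 (plus strand), for H4c4 chr13:23581318-23581567 (plus strand) and for H2az1 chr3:137864237-137864486 (plus strand). Capitals mark CCAAT (the CCAAT box), TATAAA or TATATA (the TATA box) and ATTTGCAT (the octamer), each on either strand. The TATA words can overlap each other, as they do in H1f2.
H2bc14: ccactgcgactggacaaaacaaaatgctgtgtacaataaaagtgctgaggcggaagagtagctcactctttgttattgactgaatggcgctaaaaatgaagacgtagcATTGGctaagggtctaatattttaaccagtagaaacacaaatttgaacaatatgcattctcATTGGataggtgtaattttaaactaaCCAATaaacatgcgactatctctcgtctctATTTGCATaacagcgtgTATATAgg
H2ac15: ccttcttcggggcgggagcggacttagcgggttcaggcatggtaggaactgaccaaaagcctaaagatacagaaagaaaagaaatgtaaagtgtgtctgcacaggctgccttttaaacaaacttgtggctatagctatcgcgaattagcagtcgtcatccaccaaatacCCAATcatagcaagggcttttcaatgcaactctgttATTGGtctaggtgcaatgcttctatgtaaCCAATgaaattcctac
H1f2: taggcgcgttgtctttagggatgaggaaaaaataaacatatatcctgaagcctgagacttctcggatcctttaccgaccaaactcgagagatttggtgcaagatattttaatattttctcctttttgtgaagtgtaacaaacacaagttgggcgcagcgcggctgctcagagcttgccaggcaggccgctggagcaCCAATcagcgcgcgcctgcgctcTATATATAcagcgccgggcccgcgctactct
H4c4: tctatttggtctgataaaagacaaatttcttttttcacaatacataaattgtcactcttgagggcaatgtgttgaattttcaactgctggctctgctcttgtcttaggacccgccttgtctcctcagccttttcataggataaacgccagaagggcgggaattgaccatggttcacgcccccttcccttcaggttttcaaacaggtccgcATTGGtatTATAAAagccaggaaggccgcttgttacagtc
H2az1: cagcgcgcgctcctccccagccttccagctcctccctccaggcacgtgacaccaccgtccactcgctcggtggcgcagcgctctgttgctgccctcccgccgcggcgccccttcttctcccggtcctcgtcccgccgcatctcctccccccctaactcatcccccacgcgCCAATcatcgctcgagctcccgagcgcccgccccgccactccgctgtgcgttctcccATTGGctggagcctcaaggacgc

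In H1f2 a CCAAT word began 54 bases before the start and the TATA words 31 and 29 bases before it. In H4c4 the CCAAT word, on the reverse strand, began 40 bases before the start and the TATA word 32 bases before it. H2bc14, which encodes H2B, had the octamer 25 bases before the start and 3 CCAAT words upstream of it. H2ac15 and H2az1 held CCAAT words, and no TATA word lay in these windows.

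Of the 48 members, 41 had a promoter entry. CCAAT was found in 16 of 21 replication-type promoters (76.2%), 7 of 10 variant promoters (70.0%) and 7 of 10 germ-line promoters (70.0%), against 33.8% of all 32851 promoters of the same length. A TATA word was found in 14 of 21 replication-type promoters (66.7%), 2 of 10 variant promoters (20.0%) and 4 of 10 germ-line promoters (40.0%), against 15.6% of all. The 2 variant promoters were those of H2aw and H2bu2, which lie in a chromosome 11 cluster described below. The octamer, known for its place in H2B promoters, was found in 4 of 6 replication-type H2B promoters and in 2 of 3 of H2A. It was found in 0 of 4 of H1, 0 of 2 of H3 and 0 of 6 of H4, against 1.60% of all promoters. Among variants it stood in 1 of 10 promoters, that of H2aw, and among germ-line genes in 2 of 10. Several H2A and H2B genes stand next to each other and may share one promoter region, so these promoters are not independent. A match of letters is a description and does not show a used site.

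**Figure D1:**
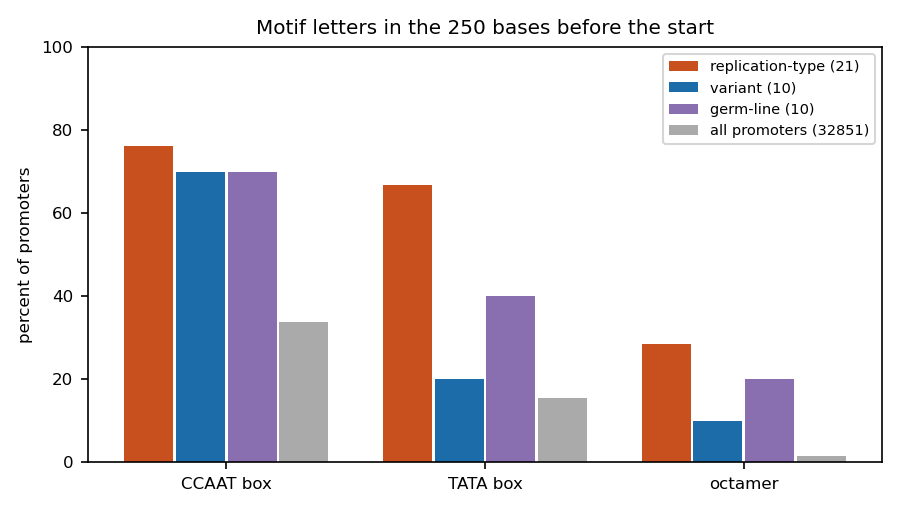
Percent of promoters (y axis) that hold the letters of each motif (x axis) on either strand in the 250 bases before the start. The bars are replication-type, variant and germ-line members and all promoters in the table, with the number of promoters in brackets. TATA words stand in 66.7% of replication-type and 20.0% of variant promoters, the latter being H2aw and H2bu2 alone.

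Signals are log2 values of the deposited table, given on arrays 1, 2 and 3. The background cutoff of an array was the 95th percentile over 1212 probe sets of odorant and pheromone receptor genes, or 5.69 on array 1, 5.73 on array 2 and 5.70 on array 3. A gene passed, or lay above background, when limma's one-sided test gave a Benjamini-Hochberg adjusted p under 0.05 over all single-symbol probe sets. Probe sets differ in affinity, so a signal does not rank transcript amounts between genes. Of all genes, 50.8% held one value on all 3 arrays, as did 15 of the 48 members. For these no spread can be given and the fitted p is too small.

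As a check of the sorted cells, the 6 duct markers had means of up to 11.71 for Calb1 (calbindin) and the lowest was the receptor gene Ret at 7.21, 6.89 and 6.89. In the mesenchyme list 0 of 4 passed, with Six2 highest at 5.07, and in the macrophage list 1 of 3, Cx3cr1 at 6.54 on all arrays. The endothelial markers had means from 7.50 for Pecam1 to 10.07 for Emcn.

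In this test 28 of the 48 members (58.3%) passed, where 56.2% of all genes did. The shares were 15 of 25 (60.0%) for replication-type genes, 9 of 13 (69.2%) for variants and 4 of 10 (40.0%) for germ-line histones. Over all members the share was near that of all genes. The median of the mean signals was 6.36 for replication-type genes, 8.30 for variants and 5.56 for germ-line histones, against 6.04 over all genes. With the cutoff raised by 1 log2 unit, 17 members passed, 7 replication-type and 9 variants among them, where 28.4% of all genes did. At that raised cutoff H1f2, H2bc14, H4c6 and H4f16 lay above it in mean and no longer passed (limma, adjusted p = 0.0912, 0.0926, 0.0849 and 0.436). The 99th and 90th percentiles left 23 and 31 members, against 36.1% and 65.4% of all genes. Receptors of odorants alone, the dimmest probe set per gene, the mean over probe sets and a filter on dim probe sets left 28 members each, against 53.9%, 55.1%, 55.9% and 56.6% of all genes. Among members only H2az1 and H2ab1 had another probe set, so the choice of probe set could hardly change the member count. The filter took out only probe sets below the cutoff on every array, which could not pass. Leaving out array 1, 2 or 3 left 29, 28 and 29 members, against 55.2%, 54.9% and 52.0%. Without array 3 limma gave all genes one common spread, so that count ignores the spread of each gene. Whether the classes differ was not tested, since genes are not replicates.

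**Figure D2:**
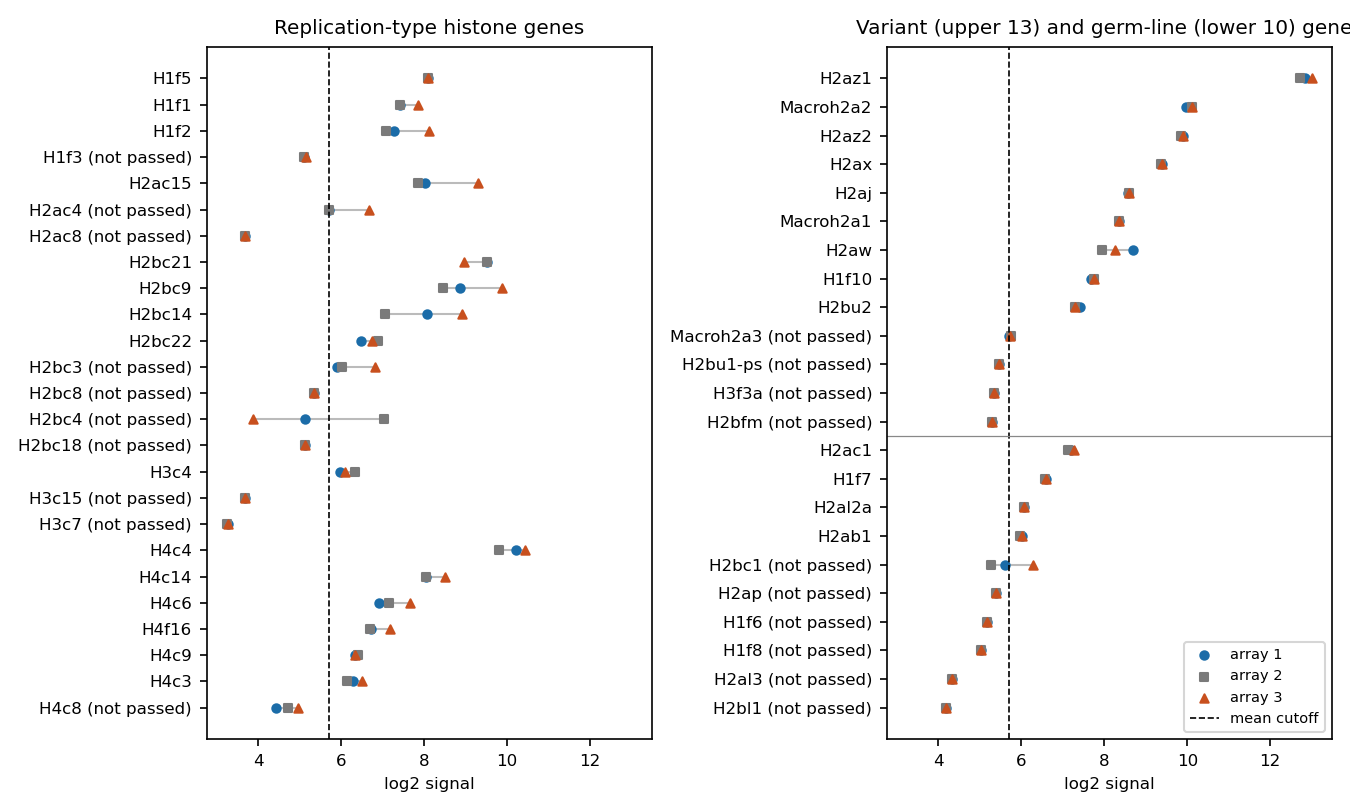
Signal of each of the 48 histone genes on arrays 1, 2 and 3 (x axis, log2 signal; 1 row a gene, points joined by a grey line). The left panel holds the 25 replication-type genes by family and the right panel the 13 variants above the 10 germ-line genes; the dashed line is the mean cutoff, and "not passed" marks genes not above background. Replication-type genes spread more between arrays than variants, whose points lie close together apart from H2aw and H2az1.

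Among the linker histones, which bind the DNA between nucleosomes, 3 of the 4 replication-type genes passed, where 56.2% of all genes did. H1f5 read 8.08 on all arrays. H1f1 read 7.42, 7.42 and 7.85. H1f2 read 7.27, 7.07 and 8.12, or 1.78 ± 0.26 log2 units above the cutoff (SE, n = 3; limma, adjusted p = 0.00546). H1f1 and H1f2 were therefore highest on array 3, and all their values lay above the cutoffs. H1f3 read 5.10, 5.10 and 5.15 and lay below the cutoff on each array.

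Of the 3 replication-type H2A genes, 1 passed, where 56.2% of all genes did. H2ac15 read 8.02, 7.85 and 9.30, lying 2.68 ± 0.37 log2 units above the cutoff (SE, n = 3; limma, adjusted p = 0.00456). H2ac4 read 5.70, 5.70 and 6.68 and did not pass (limma, n = 3, adjusted p = 0.266). Both were highest on array 3, where H2ac15 departed from its mean by 0.91 and H2ac4 by 0.66 log2 units. H2ac8 read 3.69 on all arrays, a value that 112 probe sets of the table held exactly, H3c15 among them.

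The replication-type H2B family had 8 measured genes, of which 4 passed, where 56.2% of all genes did. H2bc21, of the chromosome 3 cluster, read 9.52, 9.52 and 8.97, the highest mean of the family. H2bc9 read 8.88, 8.45 and 9.87, and H2bc14 8.07, 7.04 and 8.91. H2bc9 and H2bc14 were highest on array 3 and lowest on array 2, while H2bc21 was lowest on array 3. H2bc14 lay 2.30 ± 0.44 log2 units above the cutoff (SE, n = 3; limma, adjusted p = 0.0114). H2bc4 had the largest range of all members, with 5.12, 7.03 and 3.87, and did not pass. It ran opposite to H2bc9 and H2bc14, being highest on array 2 and lowest on array 3. H2bc22 read 6.49, 6.88 and 6.73 and passed. H2bc8 at 5.35 and H2bc18 at 5.14, each on all arrays, lay below the cutoffs. Named after its values were seen, H2bc3 read 5.91, 6.02 and 6.81, above the cutoff on each array, and did not pass with its spread (limma, n = 3, adjusted p = 0.0831). It passed without array 1 (limma, adjusted p = 0.0361).

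For H3 and H4 the counts are given side by side, with 56.2% of all genes passing, and were not tested against each other. Of 3 replication-type H3 genes, 1 passed, H3c4 at 5.98, 6.32 and 6.09. H3c15 read 3.69 on all arrays, the value it shares with H2ac8, and H3c7 3.27, 3.24 and 3.27. Of 7 replication-type H4 genes, 6 passed. H4c4 read 10.22, 9.81 and 10.43, the highest mean of any replication-type gene, at 4.45 ± 0.15 log2 units above the cutoff (SE, n = 3; limma, adjusted p = 0.000108). H4c14 read 8.03, 8.03 and 8.50, and H4c6 6.92, 7.15 and 7.65. These H4 genes were highest on array 3, as was H4c8, which at 4.43, 4.72 and 4.97 lay below the cutoffs. The other 3 H4 members had means of 6.31 to 6.87 and passed.

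Most replication-type genes lie in one cluster on chromosome 13, and 12 of the 20 measured there passed (60.0%). That share was near the 56.2% of all genes. Among the members that are direct neighbours in the RefSeq gene order (GRCm38.p6), 13 pairs could be compared. Both genes passed in 2 pairs, 1 gene in 7 pairs and neither in 4. H2bc9 averaged 9.07 and its neighbour H3c7 3.26, and H3c7 is followed by H4c6 at 7.24. H3c4 at 6.13 stands beside H4c4 at 10.16, and both passed. H2bc21 at 9.34 stands beside H3c15 at 3.69 in the chromosome 3 cluster, and H2bc3 at 6.24 beside H2ac4 at 6.03. These means come from probe sets of unknown affinity and are not ranked within a pair. On array 3, H2bc3 departed by 0.56 and H2ac4 by 0.66 log2 units from the mean of the gene, H2bc1 by 0.55 and H2ac1 by 0.07, and H4c6 by 0.41 and H1f3 by 0.04.

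The probe sets that the annotation assigns to several symbols at once bear on these counts, since replication-type copies are nearly identical. There were 47 such probe sets with a histone symbol. They named 75 member symbols, of which 53 had no probe set of their own. No gene is named from them, and they are described by family. The 7 assigned to many H2bc genes had medians of 9.76, 8.70 and 11.21 on arrays 1, 2 and 3. The 6 assigned to H4c genes had medians of 9.89, 9.73 and 10.59, although 1 of them averaged 4.65. The 10 assigned to H3c genes had medians of 7.78, 7.52 and 8.45. The H3c probe sets thus lay above the cutoff on all arrays, whereas H3c15 and H3c7 read below it from probe sets of their own. The 2 assigned mainly to H2ac genes averaged 8.64 and 10.33. In all, 24 of the 25 shared probe sets of the 4 core families lay above the cutoffs on all arrays, by value alone and without the limma test. All 25 read highest on array 3, against 13.1% of all genes by their single-symbol probe sets. Among the 9809 genes whose 3 values were not all equal, that share was 26.5%. On array 2, 23 read lowest, against 2069 of 19938 genes, of which only 9809 had values that were not all equal. No such shares were taken over all probe sets with several symbols. These probe sets target overlapping sets of transcripts and are not independent of each other. In bulk samples such as these, fewer cells of a type and less RNA per cell cannot be told apart.

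**Figure D3:**
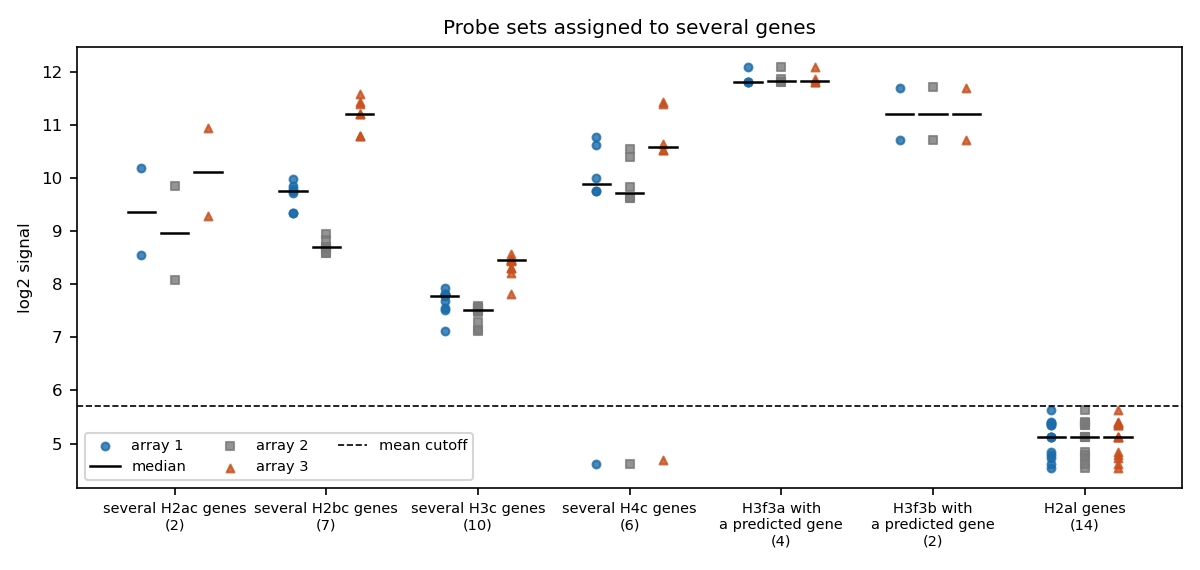
Signal (y axis, log2) of probe sets that the annotation assigns to several genes, by group (x axis, number of probe sets in brackets), on arrays 1, 2 and 3; points are probe sets, bars medians and the dashed line the mean cutoff. The H2bc group has medians of 9.76, 8.70 and 11.21, while the H3f3a and H3f3b groups differ by at most 0.05 between arrays.

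In the replication-type genes' own probe sets the arrays differed too. Of 25, 14 read highest on array 3, 4 on array 2 and 0 on array 1, where 13.1%, 12.0% and 10.9% of all genes did. Ties lower these shares. The lowest value stood on array 2 in 8 of the 25 and on array 1 in 5. Among genes whose 3 values were not all equal, array 3 was highest for 14 of 20 replication-type genes, against 26.5% of 9809 genes. On array 2 the count was 4 of 20, against 24.3%, and on array 1 it was 0 of 20, against 22.1%. The 14 came from 4 families: 3 were H1, 2 H2A, 3 H2B and 6 H4 genes, and 0 were H3 genes. Their class departed from the gene means by a median of -0.14, -0.02 and 0.18 log2 units on arrays 1, 2 and 3, and the departures on array 3 ran from -1.47 for H2bc4 to 0.91 for H2ac15. With the 3 chromosome 11 genes described below counted in, a choice made after seeing the data, the median on array 3 was 0.03. The range over the arrays was over 0.5 log2 units for 11 of 25 replication-type genes and 1 of 13 variants, where 10.2% of all genes passed that mark. Each array is a single sample, so this difference between arrays has no replicate check.

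Variants and S phase genes are set beside this pattern, and the differences between these lists were not tested. Among 13 variants 1 read highest on array 3, and their median departure on each array was 0. All 15 measured S phase genes passed, where 56.2% of all genes did. Pcna, the sliding clamp, read 11.05, 11.43 and 11.21, the ribonucleotide reductase gene Rrm2 9.59, 9.95 and 9.60, and the helicase gene Mcm6 9.16, 9.53 and 9.63. E2f1, a transcription factor of the G1 to S step, had the lowest mean of the list at 5.87 on all arrays. Of the 15, 6 were highest on array 2 and 2 on array 3, against 12.0% and 13.1% of all genes. Among the 9 whose values were not all equal, array 2 was highest for 66.7%, against 24.3% of such genes. For array 3 the share was 22.2%, against 26.5%. The median departure on array 3 was 0, with 6 of the 15 at one value on all arrays. Among the 9 it was -0.02 on array 3 and 0.09 on array 2. Endothelial markers also moved between arrays: all 5 passed and were lowest on array 2, with medians of 8.70, 7.73 and 8.70 and summed linear signals of 2923, 1505 and 3161. Their departures on arrays 1, 2 and 3 had medians of 0.32, -0.66 and 0.34, against -0.14, -0.02 and 0.18 for the replication-type genes. The replication-type genes had summed linear signals of 4641, 4201 and 6174, also lowest on array 2. Of the 25 shared probe sets of the core families, 23 read lowest on array 2 too. Summed linear signals of the 6 duct markers, all of which passed, were 7637, 6605 and 6849. Of the red cell markers 1 of 4 passed, Gata1 with a mean of 6.06. The globin genes Hbb-y, at 10.02, 5.31 and 5.45, and Hba-x, at 8.89, 5.97 and 5.84, did not pass with their spread. Hbb-bh1, at 6.41, 4.40 and 4.33, did not pass either. The sums of the red cell list were 1665, 189 and 191, highest on array 1. The part of other cells, of the stage of the cell cycle or of amplification in the array 3 values was not tested.

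**Figure D4:**
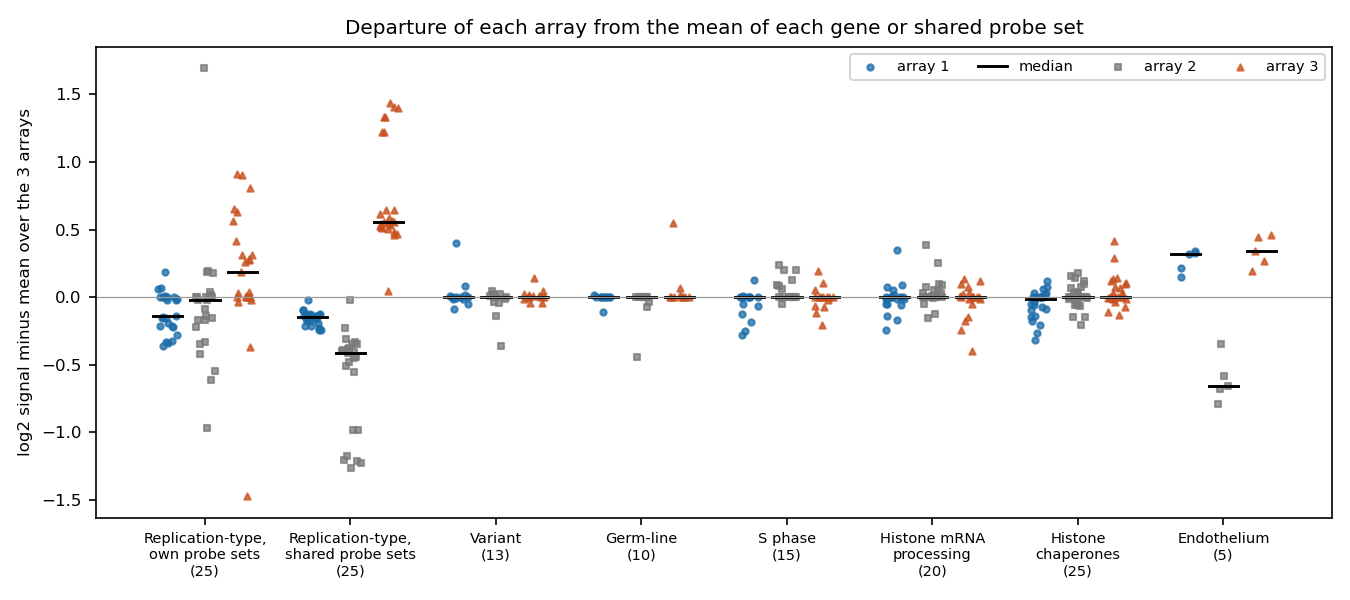
Departure of each array from the mean over the 3 arrays (y axis, log2 units) for each gene or shared probe set of 8 groups (x axis, number in brackets); points are genes or probe sets and black bars medians. On array 3 the replication-type genes have a median departure of 0.18, against 0 for variants and for S phase genes.

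Apart from H2aw, the variants differed little between arrays. H2az1, which encodes H2A.Z, the variant at gene starts and enhancers, read 12.85, 12.72 and 13.00 from its brighter probe set and 12.67, 12.58 and 12.80 from the other. Both probe sets were highest on array 3, by less than 0.3 log2 units over the lowest array. Its paralogue H2az2 read 9.89, 9.84 and 9.89. H2ax, whose protein is phosphorylated at DNA breaks, read 9.38, 9.36 and 9.38. These genes passed, and the ranges of H2az2 and H2ax were 0.05 and 0.02 log2 units. Ties on a pair of arrays occurred in both, so these ranges may understate the error.

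The macroH2A proteins carry a large globular domain and are known from silent chromatin and the inactive X chromosome. Macroh2a2 read 9.98, 10.11 and 10.11 and Macroh2a1 8.34 on all arrays, and both passed. Macroh2a3 read 5.71, 5.75 and 5.72, within 0.03 log2 units of the cutoff on each array, and did not pass (limma, n = 3, adjusted p = 0.161). H2aj, an H2A variant, read 8.58, 8.60 and 8.60, and H1f10, a linker histone made outside S phase, 7.68, 7.75 and 7.75. Both passed. H2aw and H2bu2, of the small chromosome 11 cluster, read 8.70, 7.94 and 8.25 and 7.43, 7.30 and 7.30. H2aw had the widest range among the variants, 0.76 log2 units, and was highest on array 1. H2aw, H2bu2 and the pseudogene H2bu1-ps belong by position to a cluster and were counted with the variants by name. In a count chosen after seeing the data, these genes were taken as replication-type and H2bfm as germ-line. Then 17 of 28 replication-type genes and 7 of 9 variants passed, where 56.2% of all genes did.

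H3f3a, one of the genes for the replacement histone H3.3, read 5.35 on all arrays from its own probe set and did not pass. The same value stood in 98 probe sets, among them H2bc8 and the chaperone gene Tonsl. This reading goes against the 4 probe sets that the annotation assigns to H3f3a together with the predicted gene Gm12657, which averaged 11.81 to 12.10. The 2 assigned to H3f3b together with Gm6485 averaged 10.72 and 11.71. All 6 lay above the cutoff on every array and differed by at most 0.05 log2 units between arrays. Whether they measure the H3.3 genes, the predicted genes or both cannot be told apart. H2bu1-ps at 5.47 and H2bfm, an H2B gene of the X chromosome, at 5.30, each on all arrays, did not pass.

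Of the germ-line histones, 4 of 10 passed, where 56.2% of all genes did. H2ac1, an H2A of testis and oocyte, read 7.21, 7.13 and 7.28, and H1f7, a linker histone of spermatids, 6.58 on all arrays. Their values lay above the cutoffs on each array, whereas H2bl1, the lowest, read 4.18 on all arrays. H2al2a at 6.07 on all arrays and H2ab1 at 6.02, 5.97 and 6.02 passed too. Of the 6 that did not pass, H2bc1, the neighbour of H2ac1, averaged 5.72 and the others lay below the cutoffs. The germ cell markers Dppa3, Dazl and Ddx4 had means of 4.51, 4.17 and 4.00, and 0 of the 3 passed. The 14 shared probe sets of H2al genes averaged 4.55 to 5.64, and 0 lay above the cutoffs on all arrays.

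Genes that act on histone mRNA lay above background throughout. Of 21 listed genes for processing histone mRNA, 20 were measured and 20 passed, where 56.2% of all genes did. The list includes Slbp, the stem-loop binding protein, at 9.01, 9.10 and 9.10, and Npat, the activator of histone clusters, at 6.62, 6.76 and 6.62. The highest means belonged to Snrpg, Snrpe and Snrpd3 at 12.41, 12.28 and 12.08, whose Sm proteins also serve splicing. Coil, the scaffold of Cajal bodies, was lowest at 6.04 on all arrays. The median departure of the list on array 3 was 0.

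Histone chaperones, which escort histones to DNA, passed in 24 of 25 measured cases of 28 listed (96.0%), where 56.2% of all genes did. Npm1, which also acts in the nucleolus, averaged 12.22, Nasp, the carrier of H3 and H4 and linker histones, 11.96, and Supt16, a FACT subunit, 11.27. Of the 25, 7 were highest on array 3 (28.0%), 7 on array 2 (28.0%) and 2 on array 1 (8.0%). Over all genes these shares were 13.1%, 12.0% and 10.9%. Among the 20 chaperone genes whose values were not all equal they were 35.0%, 35.0% and 10.0%. Of all such genes they were 26.5%, 24.3% and 22.1%. Tonsl, at 5.35 on all arrays, did not pass. The median departure of the chaperones on array 3 was 0. Of the 12 genes that exchange H2A.Z, all passed, where 56.2% of all genes did. Highest were Yeats4 at 10.98, 10.94 and 10.42, the ATPase gene Ruvbl1 at 10.01 on all arrays and Srcap, the motor of the SRCAP complex, at 8.75, 8.75 and 8.78. Ino80 was lowest at 6.98, 7.03 and 6.96. For the centromere, Cenpa, the H3 variant of centromeres, read 8.64, 8.58 and 8.64 and Mis18a 6.16, 6.67 and 6.16, and both passed, while Oip5 at 5.20, 5.62 and 5.20 did not.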

How the data were processed

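Transcript levels were measured in 3 duct samples, 1 array each, and no second group. The authors deposited 1 log2 value per probe set and array for 35557 probe sets, read as log2 from their range of 1.90 to 14.2 and medians of 5.85, 5.90 and 5.86. The submitters' processing notes name Affymetrix Expression Console. Which algorithm and version made the values is not given in the sources used here. Through the platform annotation 21789 probe sets had a single symbol, 1621 several and 12147 none. Where a gene had several, the one with the highest mean stood for it. Of the single-symbol probe sets, 21698 matched the RefSeq gene table (GRCm38.p6) by Entrez number, and 0 symbols changed. An intercept model of the difference from the cutoff was run through lmFit and eBayes of limma 3.58.1 under R 4.3.3 (1.13 prior degrees of freedom). It was also run on simulated data with one common spread and no tied values. That run cannot check the effect of the ties in the real values. A share of values tied between arrays makes errors too small, and the number of arrays limits the precision.

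Members, gene lists and tests were chosen with earlier results of these data known. The text names every variant, the 3 highest and the lowest of each replication-type family, the 2 highest and the lowest germ-line member, and the 5 members with the largest range. Of the duct, endothelium, mesenchyme and macrophage lists only some genes are named. Of each other list it names the 3 highest, the lowest and any that did not pass where at most 5 did not. Other genes were named after their values were seen. Alternatives were another cutoff, background, probe set per gene, array centring, a filter on dim probe sets, each array left out and, added after seeing the data, another class for the chromosome 11 genes. Motifs were searched on both strands of the RefSeq promoter table.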

Additional observations from a re-analysis of the deposited data

Results flagged for a closer look

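Probe sets assigned to several symbols lie outside the main measurement, and those of the following groups read above the receptor cutoff on all 3 arrays in at least 1 probe set. Median means were 11.83 for the H3f3a group, 11.21 for the H3f3b group, 10.07 for the H4c group, 9.88 for the H2bc group, 9.48 for the H2ac group and 7.91 for the H3c group. The probe set shared by H2aw and Trim17 averaged 6.87, and the one shared by H2bc6 and H1f4 averaged 6.87. Which of the genes on a shared probe set gives the signal was not tested.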

How the results depend on the processing

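No paired analysis was possible because the 3 arrays form a single group. The counts of members kept within 1.5 times under olfactory receptors alone and the 90th percentile. They did so too under the dim filter and another probe set per gene, which could hardly lower them. That filter took out only probe sets below the cutoff on every array, and among members only H2az1 and H2ab1 had another probe set. Centring could not change a call, since the cutoff was taken again from the centred arrays. Raising the cutoff by 1 log2 unit gave 17 of 48 members, 7 replication-type and 1 germ-line gene, and the 99th percentile gave 2 germ-line genes. Leaving out array 1 or 2 gave 28 to 29 members and 15 to 16 replication-type genes. Without array 3 limma gave all genes one common spread, so counts and single calls of that fit are not read as stability. At the 99th percentile the values of these genes fell below the cutoff: H2al2a -0.30, H2ab1 -0.37, H3c4 -0.25, H4c9 -0.016, H4c3 -0.071, Coil -0.34, Mis18a -0.048, E2f1 -0.51 and Gata1 -0.32. With the cutoff raised they were H1f7 -0.13, H2al2a -0.63, H2ab1 -0.70, H2bc22 -0.0089, H3c4 -0.58, H4c9 -0.35, H4c3 -0.40, Coil -0.67, Mis18a -0.38, E2f1 -0.84, Gata1 -0.65 and Cx3cr1 -0.17 log2 units. A higher cutoff lowers these values by construction. H1f2, H2bc14, H4c6, H4f16, Ret and Pecam1 stayed above the raised cutoff in mean and no longer passed. H2bu1-ps lay 0.071 above the 90th percentile, and H2bc4 ran from -1.20 without array 2 to 0.37 without array 3. H2bc3 passed without array 1 and at the 90th percentile, and Macroh2a3 at the 90th percentile. Signal over background limits all calls near the cutoff.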
